A study of Triticum aestivum with 54 samples.

Results

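Young inflorescences of AT2 at selfed generation S7, a synthetic allotetraploid wheat, were compared with Mix, an RNA mixture of its diploid parents at 1:1, on 3 arrays against 3. These 6 arrays, chosen by their title codes for genotype and tissue, are 6 of the 54 arrays of the series. The female parent of AT2 was TL05, an accession of Aegilops longissima with the S genome, and the male parent was TMU06, an accession of Triticum urartu with the A genome. Their hybrids were treated with colchicine and the line was then strictly selfed. S7 therefore carries both parental genomes in 1 nucleus, whereas Mix holds the transcripts of both parents brought together in a tube. All groups were grown without special treatment and sampled at the booting stage, and each S7 array carried RNA pooled from several plants of a single synthetic line. It is not stated whether the 3 Mix arrays came from separate pools, so the spread between them may in part be technical. The p-values of this comparison measure only spread between arrays, estimated jointly over all 27 young inflorescence arrays and not from S7 and Mix alone. The genotype field of the labels reads AT2 for every array, Mix included, and the genotype was taken from the title.

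Allopolyploidy joins diverged genomes in a single nucleus, and genes that the parents express at different levels then share 1 set of regulators. If each parental copy keeps its own activity, total expression is additive and equals that of the parental mixture. Nonadditive genes depart from it. They may resemble 1 parent (expression level dominance, ELD) or lie above or below both parents (transgressive expression, over-TRE and under-TRE). At booting the spike is enclosed in the leaf sheath, and its florets hold dividing cells together with the developing anthers and pistils.

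The other genotypes used here had 3 arrays each as well, and were both parents, AT2 at generations S5, S6 and S8, and the tetraploid wheats TD (ssp. dicoccoides) and TTR13 (ssp. durum). TD is wild and TTR13 domesticated, their genomes are named B and A, and neither comes from the cross that made AT2. The leaf arrays came from the second leaf of seedlings.

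Values were RMA levels on the log2 scale from the Affymetrix Wheat Genome Array. Of 61115 probe sets, 23348 were analysed, each with all 3 arrays of at least 1 of 7 groups (both parents, Mix and S5 to S8) above the 65th percentile of its array. Below, each analysed probe set counts as 1 gene, even where several probe sets read the same gene. Across genes, which are not independent replicates, Pearson correlations were 0.994 to 0.996 between S7 arrays, 0.987 to 0.993 between Mix arrays and 0.951 to 0.965 between S7 and Mix. The labelled tissue was checked against markers. All 6 probe sets of nuclear photosynthesis genes lay lower in young inflorescence than in leaf (median difference -4.56 in S7 and -4.53 in Mix), and 17 of 18 histone probe sets lay higher (median difference 3.73 and 3.74). In young inflorescence of S7, 1 of the 6 and 3 of the 18 lay under the array median. The 1 of the 6, for petC, was low in both tissues of S7 (3.13, and 3.35 in leaf) and says little on the tissue. None of the 4 probe sets of raftin, an anther protein, lay higher in young inflorescence than in leaf. In bulk tissue, fewer cells of a type and less RNA per cell cannot be told apart.

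S7 differed from Mix in 3665 of the 23348 genes, which is 15.7% (limma over the 27 young inflorescence arrays, Benjamini-Yekutieli adjusted p under 0.05). Of these, 1936 lay above Mix (8.29% of the analysed genes) and 1729 below (7.41%). The falls were larger than the rises, with a median difference of -0.88 among genes called below Mix and 0.55 among those called above, beside 0.05 over all analysed genes. The control bears on these sizes. S7 at the level of the higher parent can exceed a 1:1 mixture by at most about 2-fold. At the level of the lower parent it can fall much further. Rises and falls, and their counts at each size, are thus not on equal terms. At a difference of at least 2-fold, 165 genes were above Mix and 707 below. At 4-fold the counts were 13 and 155, at 8-fold 5 and 70, and at 16-fold 1 and 28. The S7 and Mix arrays did not overlap in 11345 genes (48.6%), among them 3663 of the 3665 called. The smallest difference called was 0.23, which is no limit of detection. Larger differences were not called where the error was larger, such as -0.70 on 1 probe set of the plastid gene rbcl (SE 0.22, adjusted p = 0.179). With 3 arrays a group, changes that were not called cannot be taken as absent.

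The balance of the calls had no settled direction. The share above Mix was 52.8%, but it was 46.2% after median centring, 45.1% when only the compared groups were fitted, 46.7% without S7 array 1, 47.3% without S7 array 3 and 47.3% without Mix array 1. Leaving out Mix array 1 also lowered the number of calls to 2402.

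The calls were arranged by the difference between the parents. Of the analysed genes, 12252 (52.5%) were called between T. urartu and Ae. longissima, 4769 (20.4%) as higher in Ae. longissima and 7483 as higher in T. urartu. Among genes higher in Ae. longissima, 36.4% were called between S7 and Mix, 911 above and 824 below. Among genes higher in T. urartu, 11.2% were called, 341 above and 497 below, and among genes not called between the parents 9.84% were called, 684 above and 408 below. Genes that differ strongly between the parents in favour of Ae. longissima went to both sides. Of the 303 genes at least 16-fold higher in Ae. longissima, 109 lay above Mix and 92 below, and 75 of the latter (24.8% of the 303) were below by at least 4-fold. The middle part of these 303 genes, from lower to upper quartile, ran from -1.95 to 0.71. Of the 93 genes at least 16-fold higher in T. urartu, 2 lay above Mix, 20 below and 1 below by at least 4-fold.

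**Figure D1:**
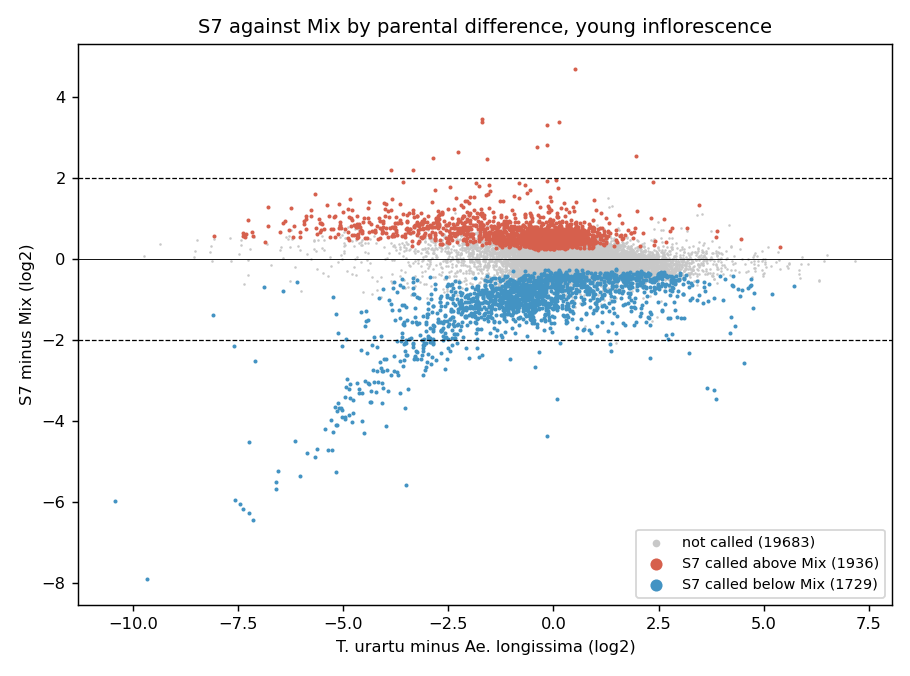
Each point is 1 of the 23348 analysed genes, with the difference between T. urartu and Ae. longissima (log2) on the x axis, S7 minus Mix (log2) on the y axis and dashed lines at 4-fold. On the left, where Ae. longissima is higher, the called genes form a band above 0 and a diagonal arm reaching down to -7.90, while the right side holds no such arm.

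Nonadditive genes were then sorted by pattern. ELD was counted where the parents were called different and S7 was called different from only 1 of them. It held 1768 genes, 48.2% of those called. S7 was not called apart from T. urartu in 905 and from Ae. longissima in 863, and these are named as at the level of that parent. With 3 arrays a group, the lack of a call does not show equal levels. Of the genes at the T. urartu level, 614 were below Mix, 10 of them although T. urartu was the higher parent, and 291 above. Of those at the Ae. longissima level, 679 were above Mix and 184 below, 4 of the latter although Ae. longissima was the higher parent. Over-TRE held 327 genes (8.92%) and under-TRE 334 (9.11%), and 220 of the over-TRE and 217 of the under-TRE genes were not called between the parents. The remaining 1236 called genes (33.7%) fitted none of these patterns. Without S7 array 1 the over-TRE and under-TRE counts were 176 and 210, and without S7 array 3 over-TRE held 183 genes.

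The largest falls were mostly at genes higher in Ae. longissima. Of the 155 genes at least 4-fold below Mix (0.664% of the analysed genes), 141 were higher in Ae. longissima than in T. urartu, 8 were higher in T. urartu and 6 were not called between the parents, and 120 were ELD genes at the T. urartu level. Their median level was 8.18 in Ae. longissima, 4.09 in T. urartu, 7.37 in Mix and 4.04 in S7, with the gap between Mix and S7 set by the cutoff. In 130 of the 155, S7 and T. urartu differed by less than 2-fold, a count not made over all analysed genes. Both medians lay under the medians of all probe sets on their arrays (4.76 in S7, 4.77 to 4.81 in T. urartu). Many of these levels were thus not told apart from background, and their closeness does not show equal expression. The low level was shared with the other generations, with medians of 4.00 in S5, 4.23 in S6 and 4.18 in S8, and in 122 of the 155 genes all 4 generations lay at least 4-fold below Mix. In the established tetraploid wheats the same probe sets had median levels of 8.91 in TD and 9.36 in TTR13. TD and TTR13 both exceeded S7 by at least 4-fold in 103 of them, and neither did in 23. The genes were chosen for a low S7, so higher levels elsewhere follow in part from that choice. The same counts over all analysed genes were not made. As TD and TTR13 carry the B and not the S genome of TL05, these levels do not show the same parental copies.

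S7 lay under the median of its arrays (4.76) in 97 of these 155 genes, and Mix in 0. The genes were chosen for a Mix level far above S7, so the 0 follows largely from that choice. A level under that median was not told apart from background, so only a lower bound of the fold change, with that level set to the median, is then known. With all such levels set to the median, 102 of the 155 genes were still at least 4-fold below Mix, and the median difference was -2.22 in place of -2.77. The count of large falls ranged from 149 to 164 over the fits that left out 1 array of S7 or Mix. In some of these genes Mix lay above both parents, although an even mixture should lie between them. On Ta.7378.14.S1_at, Mix measured 9.04, 7.92 and 10.69, beside 8.55 in Ae. longissima, 6.73 in T. urartu and 7.03 in S7. The size of such falls rests in part on a high Mix, and the reason was not tested. Against the mean of the parents' linear levels in place of Mix, 148 of the 155 were called below, 135 by at least 4-fold.

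The deepest fall was that of Ta.7378.3.S1_at, a probe set without a gene in the annotation. Its levels were 4.74, 4.93 and 4.87 on the S7 arrays and 12.62, 12.92 and 12.71 on the Mix arrays. Mix stood near Ae. longissima (13.42 ± 0.04, SD, n = 3) and S7 near T. urartu (3.75 ± 0.06, SD, n = 3). The difference was -7.90 (SE 0.16, adjusted p = 5.81e-20), and S5, S6 and S8 had mean levels of 4.79, 4.72 and 4.83. Ta.16774.1.S1_at, the next deepest fall among probe sets without a gene, measured 2.79, 2.40 and 2.53 in S7 and 9.30, 8.68 and 8.52 in Mix, at least 16.8-fold lower in S7 (fitted difference -6.26, SE 0.15, adjusted p = 2.99e-18). This transcript was high in Ae. longissima (9.81) and low in T. urartu (2.57), in TD (2.70) and in TTR13 (2.68). In leaf it fell as well, with S7 at 2.53 and Mix at 8.14 (adjusted p = 6.49e-17). Against the mean of the parents' log2 levels in place of Mix, the differences were smaller, -3.74 for Ta.7378.3.S1_at and -3.62 for Ta.16774.1.S1_at, and both were called.

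The rises of this size were few. All of them exceeded both parents, which follows largely from the cutoff. S7 at the level of the higher parent cannot exceed an even mixture of the parents by as much as 4-fold. The 13 genes at least 4-fold above Mix (0.0557% of the analysed genes) were all over-TRE, with median levels of 4.93 in Mix, 5.83 in Ae. longissima, 3.65 in T. urartu and 8.14 in S7. S5, S6 and S8 had medians of 7.95, 7.90 and 7.79. Mix was under its array median (4.75) in 5 of the 13, and 10 remained at least 4-fold above Mix with those levels set to the median. None of the 13 was paired with a gene.

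Ta.23477.1.S1_a_at rose most. It measured 8.45, 8.53 and 8.45 in S7 and 2.91, 4.05 and 4.42 in Mix, whose arrays spread widely but stayed below every S7 array. The rise was at least 13.3-fold (fitted difference 4.68, SE 0.24, adjusted p = 3.28e-12). Both parents were low (3.61 and 4.13), and S5 (8.57), S6 (8.28), S8 (8.25), TD (7.74) and TTR13 (7.29) were high. Ta.3348.1.S1_a_at measured 8.63, 8.44 and 8.57 in S7 and 4.87, 5.01 and 5.35 in Mix, an 11.0-fold rise (difference 3.46, SE 0.11, adjusted p = 1.92e-16). TD and TTR13 stood at 8.44 and 8.42, close to S7. In leaf, S7 exceeded Mix by 5.86 for this probe set (adjusted p = 2.42e-18).

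**Figure D2:**
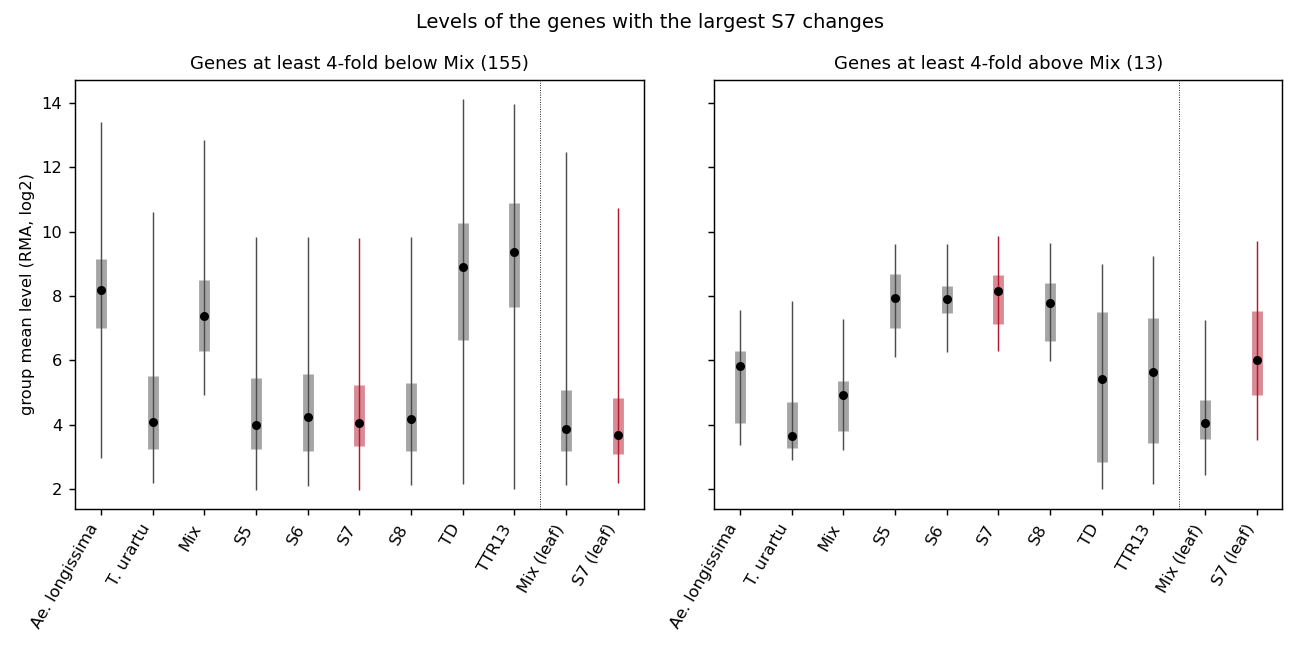
Group mean levels (RMA, log2) of the 155 genes at least 4-fold below Mix (left) and the 13 at least 4-fold above (right), by genotype and, right of the dotted line, in leaf. Dots are medians over genes, thick bars the quartiles and thin lines the range, with S7 in red. For the falls S7 sits with T. urartu and the other generations (medians 4.04 and 4.09) far under Mix at 7.37. For the rises S7 sits above both parents, which follows largely from the cutoff.

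Among genes with a name, 96 probe sets of 63 genes were analysed, and 10 of them (10.4%, beside 15.7% of all genes) were called, 3 above Mix and 7 below. The rises were small. PMM, phosphomannomutase, which supplies mannose 1-phosphate for glycosylation and ascorbate synthesis, measured 7.51, 7.17 and 7.49 in S7 and 6.79, 6.78 and 6.89 in Mix (1.48-fold, difference 0.57, SE 0.12, adjusted p = 0.0102). Its S7 mean lay near Ae. longissima (7.27) rather than T. urartu (6.67), and it was an ELD gene. AGP-S, the small subunit of ADP-glucose pyrophosphorylase, which makes the glucose donor for starch, measured 10.31, 10.35 and 10.30 in S7 and 9.96, 9.98 and 10.06 in Mix (1.25-fold, difference 0.32, SE 0.06, adjusted p = 0.0051). It was over-TRE, since both parents stood at 10.09 and 10.03. eIF4E, the cap-binding factor that starts translation, measured 11.27, 11.26 and 11.27 in S7 and 11.08, 10.92 and 10.92 in Mix (1.22-fold, difference 0.29, SE 0.07, adjusted p = 0.0281), and it too was over-TRE.

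The falls included enzymes of membrane lipid, lignin and cell wall metabolism. PEAMT1, phosphoethanolamine N-methyltransferase, which makes the choline head group of membrane lipids, measured 7.78, 8.01 and 8.02 in S7 and 8.78, 8.87 and 8.60 in Mix (1.75-fold lower, difference -0.81, SE 0.11, adjusted p = 6.48e-05). S7 was below both Ae. longissima (9.24) and T. urartu (8.60), an under-TRE gene. COMT1, a caffeic acid O-methyltransferase of lignin synthesis, measured 8.62, 8.64 and 8.63 in S7 and 8.91, 9.31 and 9.31 in Mix (difference -0.55, SE 0.13, adjusted p = 0.0241). XTH, which cuts and rejoins xyloglucan in growing cell walls, measured 7.37, 7.31 and 7.23 in S7 and 7.70, 7.71 and 7.83 in Mix (difference -0.44, SE 0.10, adjusted p = 0.0127). COMT1 and XTH both stood at the level of Ae. longissima, the lower parent for each.

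A starch enzyme and an ion channel fell too. BMY1, a beta-amylase that releases maltose from starch, measured 4.81, 4.60 and 4.77 in S7 and 5.32, 5.70 and 5.46 in Mix, and with the S7 mean just under the array median the fall was at least 1.66-fold (adjusted p = 0.0109). TPC1, a calcium channel, measured 6.01, 5.92 and 5.77 in S7 and 6.25, 6.71 and 6.67 in Mix (difference -0.64, SE 0.12, adjusted p = 0.00335).

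**Figure D3:**
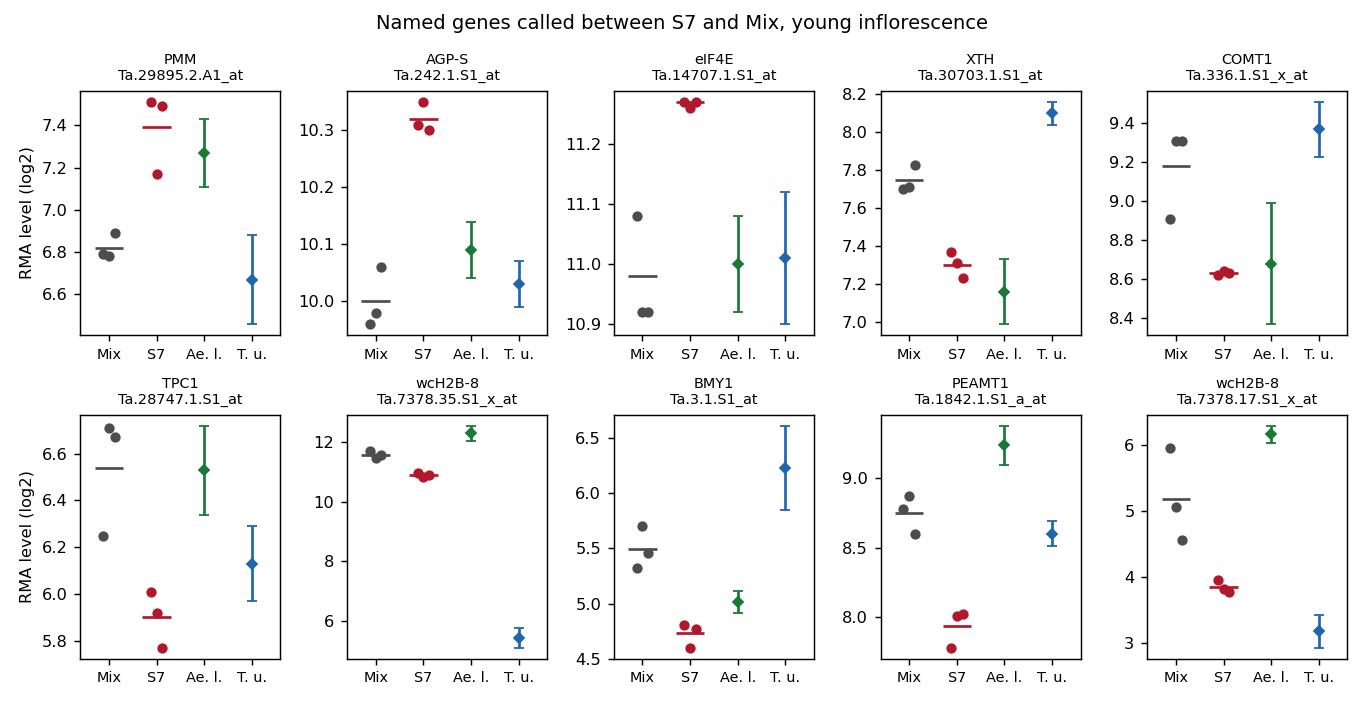
RMA levels (log2, y axis of each panel on its own range) of the 10 named probe sets called between S7 and Mix, ordered from the largest rise to the largest fall. Grey and red dots are single arrays of Mix and S7 with a line at the mean, and diamonds are the means of Ae. longissima (Ae. l.) and T. urartu (T. u.) with the SD of 3 arrays. The 3 red dots are clear of the 3 grey ones in every panel, as in 3663 of the 3665 called genes and in 48.6% of all analysed genes.

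Some of these calls rested on single arrays. Without 1 array at a time the adjusted p of eIF4E was 0.0941 to 0.162 (S7 arrays 1, 2 and 3 and Mix arrays 2 and 3) and that of COMT1 0.0818 to 0.165 (the same 5 arrays). PMM was at 0.0898 without S7 array 1, 0.0852 without S7 array 3 and 0.0583 without Mix array 1. BMY1 was at 0.0763 without S7 array 2 and 0.0838 without Mix array 2, XTH at 0.0985 without S7 array 3 and 0.0893 without Mix array 3, and wcH2B-8 (Ta.7378.35.S1_x_at, described next) at 0.0583 without Mix array 1. With only S7 and Mix left in the fit, AGP-S (0.119) and TPC1 (0.0962) were not called either, and PEAMT1 kept its call in every fit run.

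The histone gene wcH2B-8, which encodes a histone H2B packing newly made DNA in dividing cells, fell on 2 of its 7 probe sets. Ta.7378.35.S1_x_at measured 10.97, 10.82 and 10.91 in S7 and 11.71, 11.46 and 11.56 in Mix (1.60-fold lower, difference -0.68, SE 0.14, adjusted p = 0.00593). Ta.7378.17.S1_x_at measured 3.96, 3.82 and 3.78 in S7 and 5.96, 5.06 and 4.56 in Mix, at least 1.35-fold lower (adjusted p = 0.00249). The suffix x marks probes that may also bind related transcripts, so their signal may be shared. The other 5 probe sets of wcH2B-8 were not called, and Ta.7378.1.S1_at, for example, measured 11.27, 11.31 and 11.24 in S7 and 10.89, 11.03 and 10.93 in Mix (difference 0.32, adjusted p = 0.11).

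Both probe sets that fell belong to cluster Ta.7378, the array design's name for a group of similar transcripts, with 38 analysed probe sets, 31 of them without a gene in the annotation. S7 was called below Mix on 9 of the 38 (beside 7.41% of all genes) and above on 3 (beside 8.29%), and all 12 were higher in Ae. longissima than in T. urartu, as were 21 of the 38. Among all genes higher in Ae. longissima, 36.4% were called. Besides Ta.7378.3.S1_at, the falls included Ta.7378.25.S1_at, from 11.20 in Mix to 6.68 in S7 (difference -4.52, SE 0.13, adjusted p = 9.44e-17). On Ta.7378.34.S1_at, by contrast, S7 stood at 12.50 and Mix at 12.53, although Ae. longissima was at 13.06 and T. urartu at 5.81 (difference -0.03, SE 0.12, adjusted p = 1). On Ta.7378.36.S1_at S7 rose to 10.68 from 9.47 in Mix (difference 1.21, SE 0.15, adjusted p = 1.56e-05). Probe sets of 1 cluster that were all higher in Ae. longissima thus lay on either side of Mix or at its level.

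**Figure D4:**
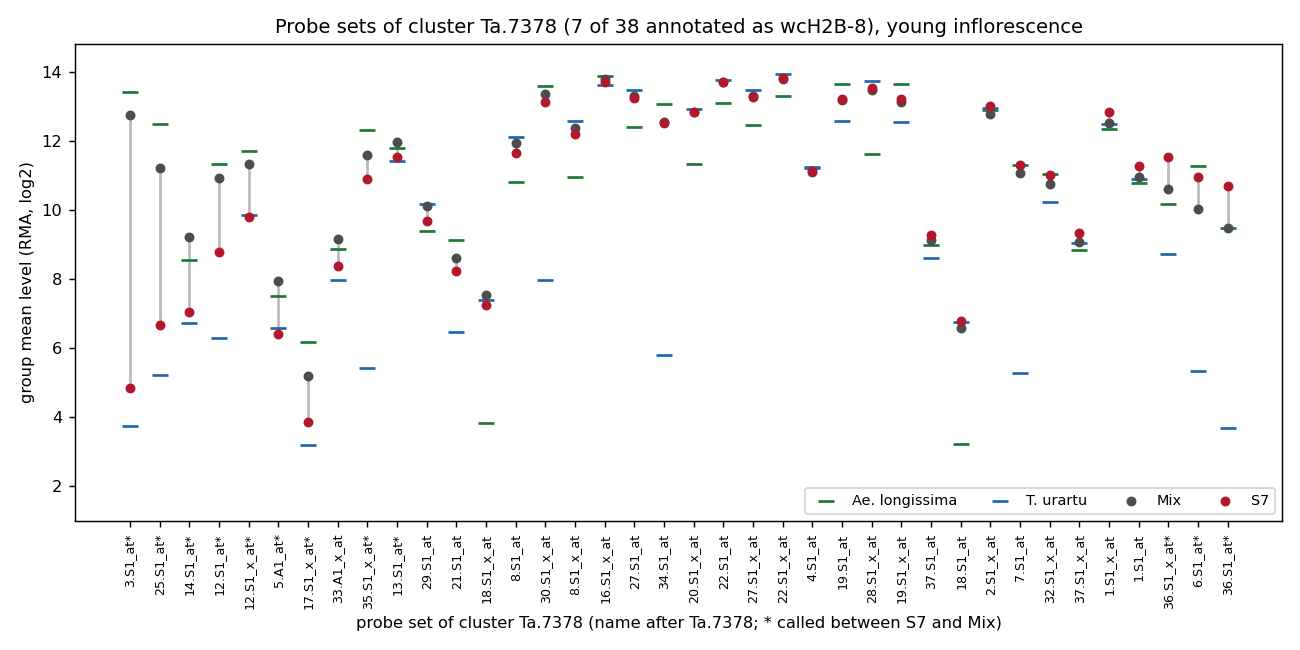
Group mean levels (RMA, log2) of the 38 probe sets of cluster Ta.7378, ordered by S7 minus Mix from the largest fall to the largest rise, with dots for Mix (grey) and S7 (red), dashes for Ae. longissima (green) and T. urartu (blue), and stars at probe sets called between S7 and Mix. The grey line between Mix and S7 is longest at the left, where S7 drops to 4.85, above the T. urartu dash at 3.75. It is near 0 for most of the cluster.

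The other named groups moved little. All 18 probe sets of histones and chromatin had a median difference of 0.02, with the 2 falls above and 0 rises. Of 11 probe sets of tubulins and profilin, the building blocks of microtubules and a binder of actin, 0 were called (limma, 1 at an unadjusted p under 0.05), with differences from -0.26 to 0.21 and a median of 0.01. Of 6 translation probe sets eIF4E rose and the others were not called, with a median of 0. None of the 5 nuclear photosynthesis probe sets was called (1 at an unadjusted p under 0.05, median -0.04). None of the 6 of rbcl, the plastid gene for the large subunit of Rubisco, was called either, with differences from -0.70 to 0.16 and a median of -0.33, and 3 of them had an unadjusted p under 0.05, all below Mix. Of 4 redox and 3 methyl cycle and purine probe sets 0 were called, with 1 of each at an unadjusted p under 0.05. GA20ox1d, which makes active gibberellin precursors, had a difference of 0.48 (adjusted p = 0.356). The annotated probe sets for defence (9), flower development (4) and heat shock and cold (2) did not pass the filter on low values.

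Pyrosequencing assays, which read the base that differs between the A and S copies of a transcript, had been designed for 153 of the probe sets. Of these 147 were analysed here, and 25 (17%, beside 15.7% of all genes) were called between S7 and Mix, 18 above and 7 below. Primers of 4 called transcripts are given 5′ to 3′ to identify them, eIF4E and those with the largest rise and the largest falls of the 25.
Ta.14707.1.S1_at (eIF4E): tgacgaaatttgtggag
Ta.9156.2.A1_a_at: gagacttgcaaaattacata
Ta.8504.1.S1_at: gcatctgatggatttcac
Ta.28736.1.S1_at: cggtgttcttcatgttgta

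Ta.9156.2.A1_a_at measured 8.34, 8.19 and 8.33 in S7 and 6.84, 7.33 and 7.42 in Mix (difference 1.09, SE 0.12, adjusted p = 4.04e-06), and S7 stood near Ae. longissima (8.04) and not near T. urartu (6.04). Ta.8504.1.S1_at measured 7.40, 7.35 and 7.34 in S7 and 8.31, 7.94 and 8.24 in Mix (difference -0.80, SE 0.14, adjusted p = 0.00166), near T. urartu (7.06) and under Ae. longissima (8.76). Ta.28736.1.S1_at went the other way between the parents. It measured 7.35, 7.34 and 7.33 in S7 and 8.26, 8.18 and 7.96 in Mix (difference -0.80, SE 0.13, adjusted p = 0.000626), and S7 stood near Ae. longissima (7.45), the lower parent, and not near T. urartu (8.39).

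Whether S7 stood apart from the generations around it was tested against the mean of S5, S6 and S8, a contrast that uses the same S7 arrays but not Mix. It called 498 genes (2.13%), 98 higher in S7 and 400 lower, and 150 of them (30.1% of the 498 and 4.09% of the 3665) were also called against Mix. Of the 155 large falls 5 were called in it, and of the 13 large rises 0. Against single generations, 746 genes were called between S7 and S5, 727 between S7 and S6 and 707 between S7 and S8. The count of 498 depended on the number of S7 arrays, and was 211 without S7 array 1, 138 without S7 array 2 and 181 without S7 array 3.

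PEAMT1 was lower in S7 than in the other generations by 0.52 on the log2 scale (SE 0.09, adjusted p = 0.00745). Its mean levels were 8.97 in S5, 8.24 in S6, 7.94 in S7 and 8.18 in S8. S5 was not called against Mix (difference 0.22, adjusted p = 1), whereas S6 and S8 were called below Mix by 0.51 and 0.57. The generation difference of PEAMT1 had an adjusted p of 0.151 without S7 array 1 and 0.0521 without S7 array 2. PRK, phosphoribulokinase of the Calvin cycle and a leaf marker, was lower in S7 by 0.59 (SE 0.12, adjusted p = 0.0395), with means of 7.19 in S5, 6.53 in S6, 6.17 in S7 and 6.56 in S8, and it was not called against Mix (6.36). TUBA, an alpha-tubulin, was lower in S7 by 0.23 (SE 0.05, adjusted p = 0.0386), with 13.59 in S5, 13.78 in S6, 13.49 in S7 and 13.78 in S8. Neither call was firm. The adjusted p of PRK was 0.0517 to 0.406 without any 1 array of S5, S6 or S7, and that of TUBA 0.0533 to 0.427 without any 1 array of S5 or S7, S6 array 2, or S8 array 1 or 2. The plot of these 3 genes by generation shows S5 as the high generation for PEAMT1 and PRK.

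**Figure D5:**
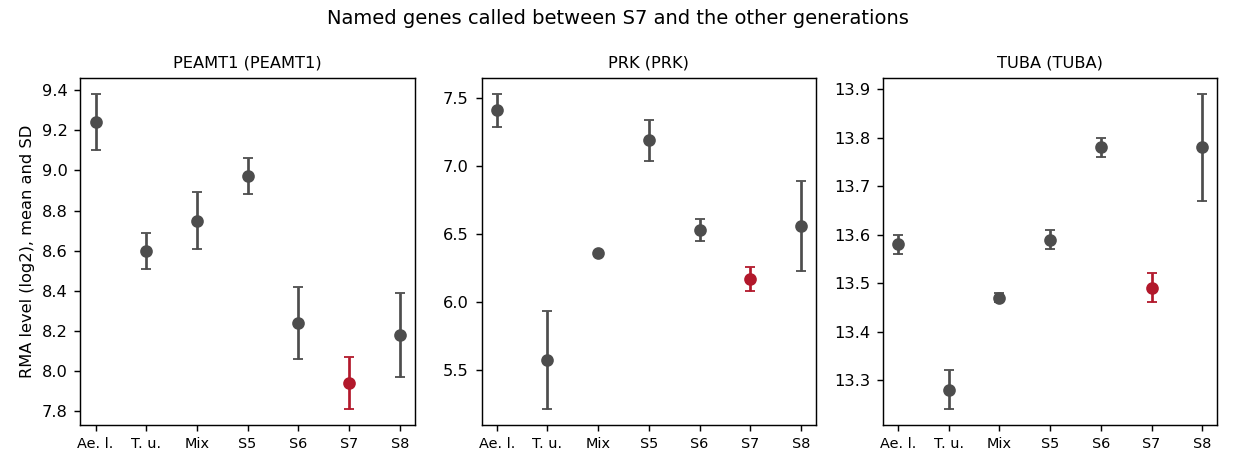
Mean RMA levels (log2, y axis of each panel on its own range) with the SD of 3 arrays for PEAMT1, PRK and TUBA in both parents, Mix and AT2 generations S5 to S8, with S7 in red. S7 is the lowest generation in all 3 panels, at 7.94 for PEAMT1, 6.17 for PRK and 13.49 for TUBA.

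Some of the genes with large generation differences, chosen after their values were seen, were not alike across generations. Ta.3907.1.S1_at measured 4.28, 4.77 and 4.69 in S7, with means of 7.94 in S5, 8.81 in S6, 4.54 in S8 and 8.95 in Mix (S7 minus the other generations -2.52, SE 0.11, adjusted p = 8.2e-12). The transcript was thus near the level of Mix in S6 and low in S7 and S8, with the S7 mean under the array median. Ta.3765.1.S1_x_at was likewise low in S7 and S8, with 5.11, 5.15 and 4.88 in S7 and means of 7.28 in S5, 7.66 in S6, 5.11 in S8 and 7.31 in Mix (-1.64, SE 0.17, adjusted p = 2.55e-05). Ta.27054.1.S1_at was high in S7 alone, at 6.15, 6.98 and 6.67, beside means of 5.71 in S5, 5.24 in S6, 5.14 in S8 and 5.43 in Mix (1.24, SE 0.15, adjusted p = 0.00018). A wider gap with a larger error was at Ta.23366.3.A1_x_at, higher in S7 by 1.90 (SE 0.39, adjusted p = 0.0381). Its means were 10.22 in S7, 9.79 in S8, 8.73 in S5 and 6.43 in S6, whose arrays spread widely (SD 1.87). TaAffx.144000.1.S1_x_at was lower in S7 by 1.66 on the log2 scale (SE 0.31, adjusted p = 0.0178). Its means were 10 in S7, 11.70 in S5 (SD 1.38), 11.89 in S6 and 11.38 in S8.

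The same comparison in leaf called 2854 of 24053 analysed genes (11.9%). The difference between the tissues was tested as an interaction over all 54 arrays, and it was called for 2683 of 27583 genes (9.73%), 1330 with S7 minus Mix higher in young inflorescence and 1353 with it lower. Of the 19818 genes analysed in both tissues, 205 were above Mix in both and 336 below in both, 59 were above Mix in young inflorescence and below in leaf, and 36 the reverse. At 4-fold, leaf held 145 falls and 144 rises, where young inflorescence held 155 and 13. The leaf calls fell to 1756 and 1884 without leaf S7 arrays 2 and 3, and to 1794 and 1818 without leaf Mix arrays 2 and 3. The contrast of the tissues in these counts was not tested. Of the 155 large falls of young inflorescence, 142 were called in the interaction, but in leaf the Mix level of 108 lay under the array median. Only 36 of the 155 were analysed in leaf, and 22 of them were called below Mix there (5.85% of all genes were called below Mix in leaf). Of the 13 large rises 8 were analysed in leaf, and all 8 were called above Mix, beside 1447 of all 24053 genes analysed in leaf.

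PEAMT1 fell in young inflorescence and not in leaf, where S7 measured 13.12, 12.90 and 13.11 and Mix 12.81, 12.74 and 12.70, and the tissue difference was -1.10 (SE 0.22, adjusted p = 0.00339). TPC1 showed a tissue difference of -0.79 (SE 0.19, adjusted p = 0.0284), with leaf means of 6.26 in S7 and 6.11 in Mix, and wcH2B-8 on Ta.7378.17.S1_x_at one of -1.73 (SE 0.31, adjusted p = 0.000488) with both leaf groups under the array median. PIMT, a methyltransferase that repairs damaged proteins, went the other way. In leaf it measured 9.11, 7.79 and 8.48 in S7 and 9.34, 9.18 and 9.15 in Mix, and in young inflorescence, where it did not pass the filter, 5.49, 5.35 and 5.47 in S7 and 4.49, 4.91 and 4.85 in Mix (tissue difference 1.45, SE 0.30, adjusted p = 0.0044). For 2 histone probe sets, wcH2A-9 on Ta.27657.14.S1_s_at (0.79, adjusted p = 0.0326) and wcH2B-8 on Ta.7378.1.S1_at (0.92, adjusted p = 0.0481), the leaf means ran from 3.23 in S7 to 5.52 in Mix, beside levels above 10 in young inflorescence. Neither passed the filter in leaf, and the S7 minus Mix difference of wcH2A-9 in young inflorescence was -0.02. Leaving out single arrays ended the tissue calls of TPC1 (0.0585 to 0.212, S7 arrays 2 and 3 and Mix arrays 2 and 3, and in leaf S7 arrays 2 and 3 and Mix array 3), wcH2A-9 (0.0541 to 0.14, S7 arrays 1 to 3 and Mix array 3, and in leaf S7 arrays 2 and 3 and Mix arrays 2 and 3) and wcH2B-8 on Ta.7378.1.S1_at (0.061 to 0.294, all arrays but leaf S7 array 1 and leaf Mix array 2).

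Mix was set beside the parents it was made from. It differed from the mean of the parents' log2 levels in 3187 genes (13.6%), 2625 above and 562 below, and from a linear mid-parent value, averaged before taking log2, in 564 (2.42%), 352 above and 212 below. Most large changes were also found against a computed control. Of the 155 large falls 148 were called below the linear mid-parent value, 135 of them by at least 4-fold, and of the 13 large rises all 13 were called above it, 11 by at least 4-fold. For wcH2B-8 on Ta.7378.35.S1_x_at the difference against the linear mid-parent value was -0.42 and was not called (adjusted p = 0.0828). Against the mean of the parents' log2 levels it was 2.03 (adjusted p = 1.46e-11). The parents stood far apart there, at 12.31 in Ae. longissima and 5.43 in T. urartu, so that mean lies well under the level of a 1:1 mixture.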

How the data were processed

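The authors deposited log2 expression values from the Affymetrix Wheat Genome Array. They made them with RMA, which corrects the background, brings the arrays to a common distribution by quantiles and summarises the probes of each set. Submitters' processing notes list limma and MAS5 too, with no version. The deposited log2 values were used as given, and 0 columns were unmatched to a sample. The present calls of the study's filter were not used here, and the percentile filter stands in for them. The software was limma 3.58.1 under R 4.3.3. Linear models (lmFit, then eBayes) had 1 mean for each of 9 genotypes over 27 arrays, or over all 54 arrays for the tissue interaction. A gene was called where its limma p, adjusted by Benjamini-Yekutieli over all analysed genes, was under 0.05. Plots used matplotlib 3.10.9 and Python 3.11.15. The number of arrays limits the precision.

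Members, gene lists and tests were chosen with earlier results of these data known. The platform annotation pairs 1273 probe sets with 1 gene, and for 200 of them, from 102 genes, that gene has a name. Named genes were, among analysed probe sets with exactly 1 named gene, the 12 largest called rises and falls with arrays that do not overlap, the called members of the lists, and the 4 largest called rises and falls of the generation contrast and of the tissue interaction. For probe sets without a gene they were the 2 largest rises and the 2 largest falls. PIMT, not analysed in young inflorescence, was named from the interaction. Replicate numbers did not pair S7 with Mix, since deviations of same-numbered arrays correlated at 0.08, 0 and -0.01. No array values were identical between S7 and Mix arrays beyond 0.0671% of probe sets. Alternatives were Benjamini-Hochberg adjustment, other filters, fits of only the compared groups, median centring, quantile normalization, calls of at least 1.5-fold, probe sets without shared-probe suffixes, a replicate block, computed mid-parent values as control, and leaving out each array in turn. Probe sequences were not used here.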

Additional observations from a re-analysis of the deposited data

Results flagged for a closer look

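Results stand here where the effect differed between tissues or generations under a test of the difference itself. The S7 minus Mix difference changed between young inflorescence and leaf in 2683 genes, and S7 differed from the mean of S5, S6 and S8 in 498. By tissue, the differences of S7 minus Mix in young inflorescence from those in leaf were -1.73 for wcH2B-8 (Ta.7378.17.S1_x_at), -1.10 for PEAMT1, -0.79 for TPC1, 0.79 for wcH2A-9, 0.92 for wcH2B-8 (Ta.7378.1.S1_at) and 1.45 for PIMT. By generation, S7 minus the mean of the others was -0.52 for PEAMT1, -0.59 for PRK and -0.23 for TUBA. Of these, wcH2A-9 and both wcH2B-8 probe sets did not pass the filter on low values in leaf, nor PIMT in young inflorescence, so their sizes rest in part on levels near or under background. PEAMT1 was the only one of these named genes that met both tests. What lies behind these differences was not tested.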

How the results depend on the processing

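The 155 falls of at least 4-fold ranged from 149 to 164 without 1 array, those among them higher in Ae. longissima (141) from 138 to 149, and the 13 rises from 13 to 17. Without probe sets of shared-probe suffixes, which leaves fewer genes, they were 111, 99 and 9, and a filter at the 75th percentile gave 132, 122 and 11. With Benjamini-Hochberg adjustment the counts were 7433 for S7 against Mix, 900 over-TRE, 710 under-TRE, 3039 ELD, 1991 against the other generations, 5899 between tissues, 5960 in leaf and 6310 for Mix against the mid-parent value. With only the compared groups fitted they were 178 over-TRE, 286 against the other generations and 2058 for Mix against the mid-parent value. With a minimum fold change of 1.5 they were 2173 for S7 against Mix, 113 over-TRE, 245 against the other generations and 1716 for Mix against the mid-parent value. Without probe sets of shared-probe suffixes they were 200 over-TRE, 254 against the other generations, 1713 between tissues and 1802 in leaf. Against the mean of the parents' log2 values, which lies below the log2 of their mean linear value where they differ, S7 had 5947 calls, 70.4% of them above. Mix against the log2 of the mean linear value had 564. The share above Mix of 52.8% fell under an even split with no filter (44.7%), a filter at the 50th percentile (49.5%), only the compared groups (45.1%), a minimum fold change of 1.5 (39.7%), median centring (46.2%) and without S7 array 1 (46.7%), S7 array 3 (47.3%) or Mix array 1 (47.3%), and the cause was not tested. Without 1 array, and so with fewer samples, S7 against Mix ranged from 2402 to 3413 calls, the share above from 46.7% to 52.8%, over-TRE from 176 to 350, under-TRE from 210 to 369, ELD from 1246 to 1842, the generation contrast from 138 to 734, the tissue interaction from 2068 to 2628, leaf from 1756 to 2585 and Mix against the mid-parent value from 2179 to 3616. A replicate block gave 3560 calls for S7 against Mix and 480 for the generation contrast, and it ended the calls of PRK (adjusted p = 0.0501) and TUBA (0.0615) against the other generations and of wcH2B-8 Ta.7378.1.S1_at between tissues (0.0533). Over the named probe sets, 421 of 453 recomputed S7 minus Mix values kept their direction and call, 31 lost the call and 1 reversed (wcH2B-8 Ta.7378.35.S1_x_at, 2.03 against the mean of the parents' log2 values). For the generation contrast 33 of 64 and for the tissue interaction 93 of 128 kept the call, and none reversed. In these totals a call was judged by the adjusted p alone, and the minimum fold change of 1.5 was not applied. PMM (1.48-fold), COMT1 (1.46-fold), XTH (1.36-fold), AGP-S (1.25-fold) and eIF4E (1.22-fold) lay under that minimum against Mix. PEAMT1 (-0.52) and TUBA (-0.23) did so in the generation contrast. The totals therefore overstate how many calls were kept. The counts of large changes under each alternative were added after the data were seen. Low levels limit the falls, since S7 lay under its array median in 97 of the 155, where only a lower bound of the fall is known.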
